A study of Saccharomyces cerevisiae with 51 samples.

Results

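A group of 45 budding yeast genes carries the annotation mark of a programmed ribosomal frameshift. In each of them the reading frame is written as 2 coding records separated by fewer than 20 bp. The members were taken from the before version of the deposited gene annotation, as protein-coding genes of the nuclear chromosomes with 2 or more exon or coding records and no wider gap between neighbouring exon records. The 45 are part of 6664 nuclear protein-coding genes and of 7126 annotated genes in all.

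The series holds 51 chromatin immunoprecipitation sequencing libraries of yeast with the BY4741 background, 17 each of input DNA, histone H3 and H3 phosphorylated at serine 10 (H3pS10). They cover wild-type, ipl1-TetR-mCh, sgo1-TetR-mCh, H3-S10A and sgo1 delta cells, with and without beta-estradiol (E2, 1 nM for 3 hours), and cells of the wild type, ipl1-321 and cdc15-1 after heat treatment (37 °C for 90 min). The 6 files analysed here hold positions in 2 versions of the genome, called before and after, and no value of a library. All values given for the frameshifted genes are therefore lengths, distances and counts read exactly from the annotation, so they have no replicate spread and were not tested.

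In a programmed frameshift the ribosome slips by a base at a defined place in the messenger RNA, so that a share of the ribosomes leaves the first reading frame and goes on in another. Budding yeast is best known for forward shifts, in which a base is skipped. Ty retrotransposons such as Ty1 and Ty3 use such a shift to make a long Gag-Pol fusion beside the structural Gag protein. The reading frame of Gag itself stops soon after the slip. Ty elements replicate through RNA and insert their DNA copies into the chromosomes, and Ty1 and Ty3 are known to insert upstream of genes transcribed by RNA polymerase III, above all tRNA genes. A few cellular genes also use the shift, among them the gene for antizyme.

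The annotation gives 3 members a name, OAZ1, EST3 and ABP140, and the other 42 a systematic identifier only. All 45 identifiers matched a locus tag of the NCBI gene table for assembly R64, which gave a symbol to the same 3. Neither source states a product or a Ty family for the 42, so that their description as mostly Ty genes could not be checked against a record. They are called the unnamed members below, and what they share in layout and place is given as measured.

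Every member had exactly 2 records, and in all 45 the gap between them was exactly 1 bp, the size of a single skipped base. No nuclear protein-coding gene had a largest gap between 1 and 49 bp. The first gene outside the rule was YJR112W-A with 49 bp, followed by HMRA1 with 54 bp and TAN1 with 58 bp. These belong to the 273 other nuclear protein-coding genes with more than 1 exon record. Gaps under 20 bp occurred also in 24 tRNA genes, where they measured 14 to 19 bp, and in 2 pseudogenes, YIL080W and YNL054W-B, with a gap of 1 bp each.

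In 41 members both coding records were whole numbers of codons, so that the skipped base fell between codons. The remaining 4, YGR109W-B, YIL082W-A, YJR029W and YOR343W-B, had first records of 850, 851, 1301 and 1294 bp, and the gap fell inside a codon. The same 4 had no stop codon record, which was missing in 170 of the 6664 nuclear protein-coding genes. Their coding length may therefore include the stop codon, and the place of their shift is known to within a codon. In all 45 the summed coding length was a multiple of 3.

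The unnamed members were long genes of nearly uniform size. Their coding length, taken without the stop codon where this had a record, ranged from 4497 bp in YIL082W-A to 5406 bp in YHL009W-B, with a median of 5265 bp (1755 codons). The median of the 6619 other nuclear protein-coding genes was 1068 bp. A coding length of 5 kb or more was found in 38 of the 42 unnamed members and in 1.16% of the other genes. Members made up 38 of the 115 nuclear protein-coding genes of that length, or 33% of them.

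Many of the unnamed members were equal to the base. A first record of 1305 bp followed by a second of 3960 bp was shared by 20 of them, and 8 had records of 1293 and 4017 bp. Another 3 (YER138C, YER160C and YJR027W) had records of 1302 and 3963 bp, and 2 (YBR012W-B and YPR158W-B) records of 1305 and 3963 bp. The remaining 9 unnamed members each had a layout of their own. Altogether 23 genes of the nuclear genome had a coding length of exactly 5265 bp, and all 23 were members.

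**Figure D1:**
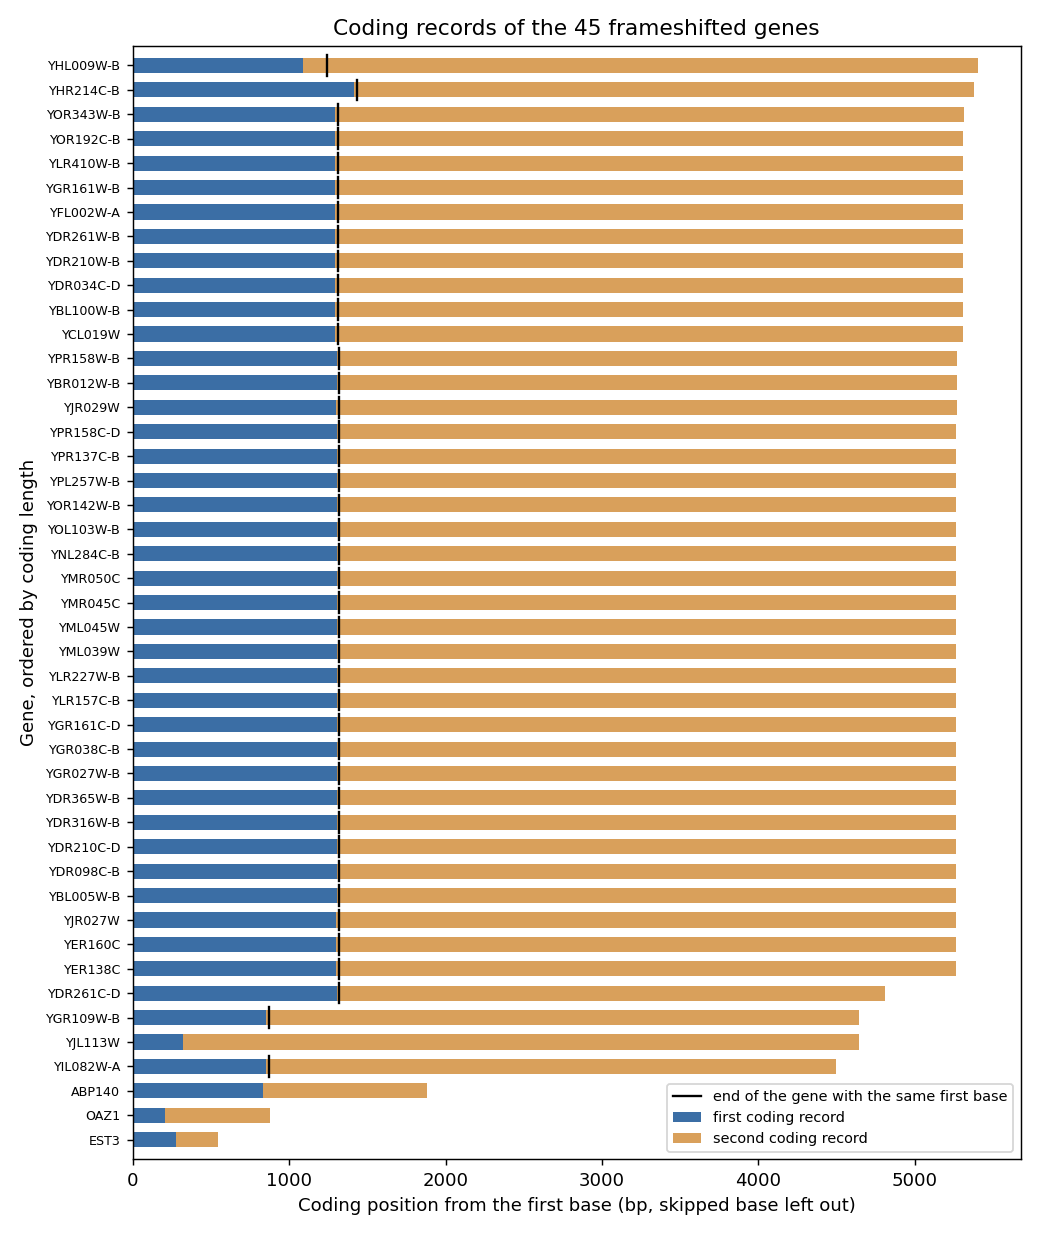
Coding records of the 45 members, drawn from the first coding base (x axis, bp) and ordered by coding length. Blue bars are first records, orange bars second records, and a black line marks where the gene with the same first base ends its coding part. In 37 rows the shift lies between 1290 and 1305 bp, while OAZ1, EST3, ABP140 and YJL113W have no black line.

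In the unnamed members the shift came well before the middle of the coding part. The first record had a median of 1305 bp (435 codons), and the median shift lay at 24.8% of the coding length. The earliest shift was that of YJL113W, at 321 bp or 6.91%, and the latest among the unnamed members, by percentage, was that of YDR261C-D at 27.1%. The longest first record, 1416 bp, belonged to YHR214C-B.

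Each unnamed member except YJL113W had a smaller companion, a separate gene on the same strand that began at the same base and stopped a little beyond the shift. The 41 companions were all different genes. Among the 6578 genes that were neither members nor companions, 4 (0.0608%) shared their first base with another gene. The companions fell into a few sizes. They measured 1320 bp in 27 cases and 1314 bp in 10, 870 bp in 2 (those of YGR109W-B and YIL082W-A), 1239 bp in YHL009W-B and 1434 bp in YHR214C-B. A coding length of 1320 bp was the most common one in the nuclear genome, with 39 genes, of which 27 were these companions.

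The companion's frame ran on past the end of the first record by a short and repeated distance. It did so by 15 bp, or 5 codons, in 23 members and by 21 bp in 8. A further 9 lay between 18 and 24 bp. In YHL009W-B, with the longest coding part of all members, the companion continued for 153 bp. The size of the companion and of the whole gene went together. With a companion of 1320 bp the coding length was 4812 to 5268 bp, with one of 1314 bp it was 5310 to 5313 bp, and these ranges did not overlap.

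The gene without a companion, YJL113W on chromosome X (198678 to 203325), had a single-record neighbour on the same strand, YJL114W (197915 to 198595, 681 bp), which ended 82 bp before it. Its second record of 4323 bp was close in length to that of YHL009W-B (4320 bp), and its first was 321 bp against 1086 bp. YDR261C-D, with 4812 bp, was the shortest gene with a 1320 bp companion. Its first record had the common 1305 bp, and its second was 3507 bp in place of 3960 bp. The pseudogene YIL080W on chromosome IX (205635 to 210357) started at the same base as YIL082W-A (205635 to 210132) and overlapped it along its whole length of 4498 bp.

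The named members were short and differed from each other in length and in the place of the shift. OAZ1 (YPL052W, chromosome XVI, 458799 to 459678, plus strand) encodes antizyme, the inhibitor that directs ornithine decarboxylase to degradation, and its shift is known to respond to polyamines. Its first record had 207 bp (69 codons) and its second 669 bp, which puts the shift at 23.6%. EST3 (YIL009C-A, chromosome IX, 335666 to 336212, minus strand) encodes a subunit of telomerase. With 543 bp (181 codons) it was the shortest member, and its shift after 276 bp (92 codons) lay latest of all, at 50.8% of the coding length. ABP140 (YOR239W, chromosome XV, 784857 to 786744, plus strand) encodes an actin-binding protein that is also a tRNA methyltransferase, TRM140 in the gene table. Its 1884 bp were split into 831 bp (277 codons) and 1053 bp, and the shift was at 44.1%. The gene table lists another identifier as a synonym of ABP140 (YOR240W) and of OAZ1 (YPL052W-A), and neither occurs in the annotation. None of the 3 had a companion with the same first base.

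Most unnamed members lay close to a tRNA gene. The nearest edge of a nuclear tRNA gene was within 1 kb of 29 of the 42 (69%), and of 30 of all 45 members (66.7%), against 6.57% of the 6619 other nuclear protein-coding genes. The companions count among those other genes and share the members' places. Without them the share was 6.31%. Within 500 bp the count was 19 of 45 members against 4.37% of the other genes, and within 2 kb it was 33 against 10.6%. The median distance was 534.5 bp for the unnamed members and 17108 bp for the other genes. No member had a small nucleolar RNA gene within 1 kb, against 137 of the 6619 other genes (2.07%). At so low a share, 45 members are too few for this count to set them apart. The smallest distance was 4044 bp, at YGR027W-B, and the chromosome of YFL002W-A had no such gene.

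**Figure D2:**
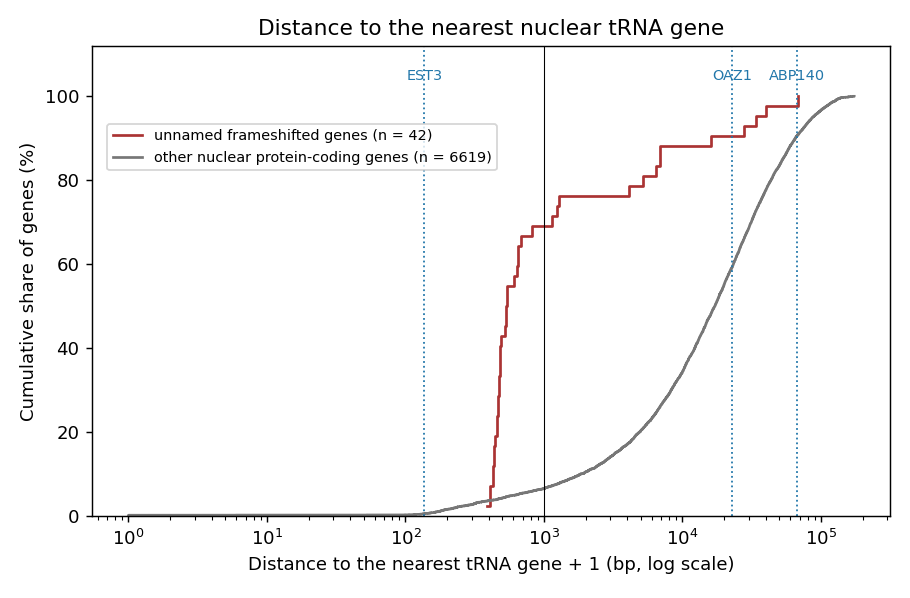
Cumulative share of genes (y axis, %) by distance to the nearest nuclear tRNA gene (x axis, bp, log scale), for the 42 unnamed members in red and 6619 other nuclear protein-coding genes in grey. The vertical black line marks 1 kb, where the curves stand at 69% and 6.57%, and dotted lines mark EST3, OAZ1 and ABP140.

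Within 1 kb, the distances of the unnamed members covered a narrow range. They ran from 386 bp, at YDR034C-D, to 818 bp, at YLR227W-B, with a median of 480 bp. These distances are measured from coding records, and the long terminal repeats and untranslated parts that flank the coding part of a Ty element have no record in the annotation, so the distance of an element's own end was not measured. In 27 of the 29 no other annotated gene lay in the space between, the exceptions being YIL082W-A and YMR045C. The same was not counted for the other genes within 1 kb, so this count does not set the members apart. At YIL082W-A the gene counted was the pseudogene YIL080W, which starts at the same base. It ends at 210357, beyond the end of YIL082W-A at 210132, and so reaches nearer to the tRNA gene.

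All 29 unnamed members within 1 kb of a tRNA gene lay on its 5′ side, the side from which its transcription starts. Of the 435 other protein-coding genes within 1 kb, 170 (39.1%) lay on that side, and 151 of 415 (36.4%) without the companions. The unnamed members took both orientations. In 19 the 5′ end of the gene faced the tRNA gene, on the opposite strand, with a median distance of 473 bp. In the other 10 the 3′ end faced it, on the same strand, with a median of 502 bp, and the ranges of both orientations overlapped (386 to 818 bp and 431 to 633 bp). The orientation of the other protein-coding genes within 1 kb was not counted.

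EST3 was the exception in place. It lay 136 bp from the aspartate tRNA gene tD(GUC)I2, nearer than any other member, and on its 3′ side. The tRNA gene of the other named members was distant, 22834 bp for OAZ1 and 67442 bp for ABP140.

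**Figure D3:**
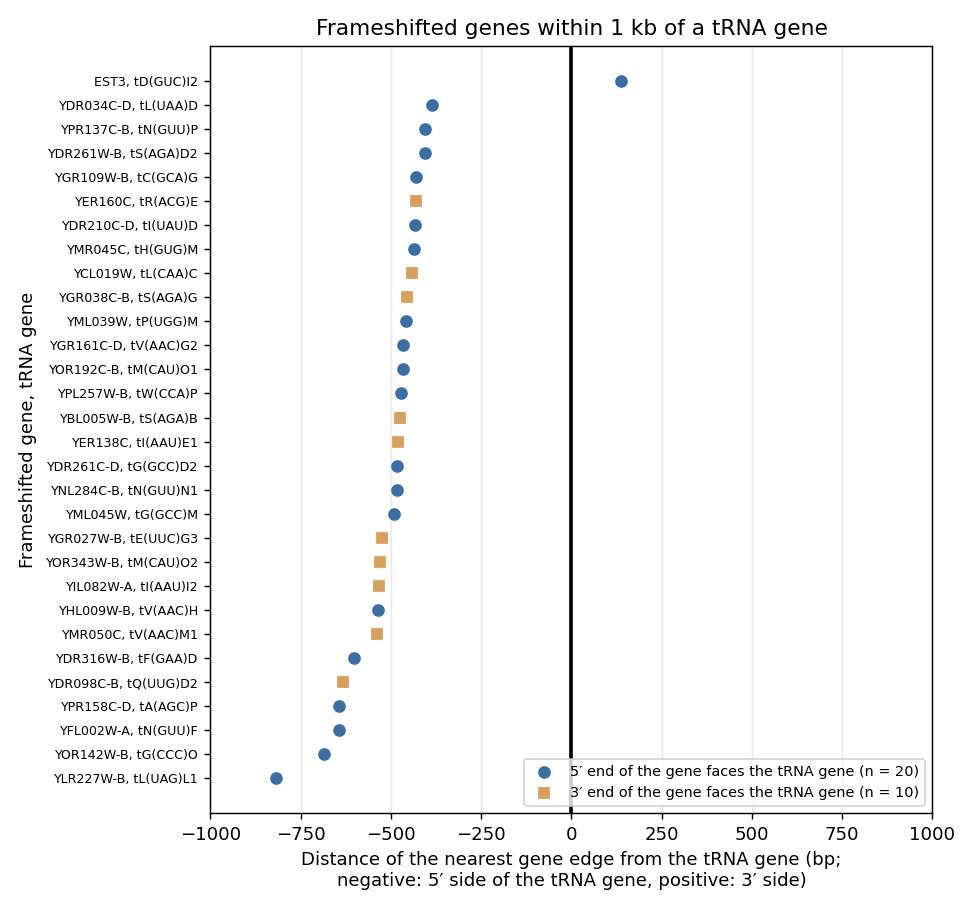
The 30 members within 1 kb of a tRNA gene, each with its nearest tRNA gene, by the distance (x axis, bp) of the gene's nearest edge from the tRNA gene drawn at 0. Negative values are the 5′ side of the tRNA gene. Circles are genes whose 5′ end faces the tRNA gene and squares those whose 3′ end does. The 29 unnamed members lie between 386 and 818 bp on the 5′ side, and EST3 lies 136 bp away on the 3′ side.

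The 30 nearest tRNA genes within 1 kb were all different, and they carried many amino acids. In all, 32 of 275 nuclear tRNA genes (11.6%) had a member within 1 kb, and they stood for 17 amino acids and 22 anticodons. Glycine had the most, with 4 of its 21 tRNA genes. Tryptophan had 2 of 6 and asparagine 3 of 10, and none of the 21 lysine, 16 threonine and 8 tyrosine tRNA genes had a member so close. At an overall share of 11.6% the counts per amino acid are small, and differences between amino acids were not tested. The initiator methionine tRNA primes reverse transcription in Ty1 and Ty3. Of its 4 genes, IMT1 on chromosome XV lay 468 bp from YOR192C-B and IMT3 34200 bp from YJR029W. The member nearest to IMT2 was the named gene OAZ1, at 119879 bp. For IMT4 it was YER138C, at 343551 bp. HSX1, the arginine tRNA gene whose product reads the AGG codon at which Ty1 ribosomes pause, was 54942 bp from YJR029W.

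The 13 unnamed members further than 1 kb from a tRNA gene were of several kinds. YBL100W-B (1149 bp), YBR012W-B (1237 bp) and YJL113W (1292 bp) lay just beyond, all on the 5′ side. YDR210W-B (6935 bp), YGR161W-B (6430 bp) and YPR158W-B (6921 bp) lay on the 5′ side too, with another member standing between them and the tRNA gene, at 433, 466 and 644 bp from it. The remaining 7 were all more than 2 kb away. YOL103W-B, YDR365W-B, YLR410W-B, YJR029W and YJR027W were on the 3′ side of their nearest tRNA gene at 4125, 5174, 16175, 34200 and 39784 bp. YJR027W, too, had another member, YJR029W, between itself and the tRNA gene, as 1 of 4 such members in all. YLR157C-B and YHR214C-B were on the 5′ side at 27611 and 68185 bp, the latter the greatest distance of any member. Over all 45 members 38 lay on the 5′ side of the nearest tRNA gene, against 47% of the other genes.

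Members stood in pairs at 5 places, less than 2 kb apart. In 4 of the pairs the genes were convergent, with their 3′ ends facing each other. YGR161W-B and YGR161C-D on chromosome VII were 695 bp apart, YDR261W-B and YDR261C-D on chromosome IV 758 bp, YPR158W-B and YPR158C-D on chromosome XVI 1008 bp and YDR210W-B and YDR210C-D on chromosome IV 1233 bp. Except on chromosome XVI, each convergent pair joined a gene with a 1314 bp companion to one with a 1320 bp companion. At YDR261 each gene had a tRNA gene of its own, at 406 and 482 bp, and in the other 3 convergent pairs both had the same nearest one. The tandem pair YJR027W and YJR029W on chromosome X was the closest, with 315 bp between them.

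The members were found on 14 of 16 nuclear chromosomes. Chromosome IV, the longest, had 8, chromosomes VII, XV and XVI 5 each, XIII 4, II, X and XII 3 each, V, VIII and IX 2 each, and III, VI and XIV 1 each. Chromosomes I and XI had none, although XI is 666816 bp long and holds 16 tRNA genes. The rule counts only genes written as 2 or more records with short gaps. Outside it, YAR010C on chromosome I had the common companion length of 1320 bp and lay 400 bp from a tRNA gene, on its 5′ side. Per length, the density was highest on chromosomes XVI (5.27 per Mb) and IV (5.21 per Mb), against 3.73 per Mb over the nuclear genome. These densities count named members too. The 5 members of chromosome XVI include OAZ1, and 4 were unnamed, while all 8 of chromosome IV were unnamed. The lowest density above 0 was 1.27 per Mb, on chromosome XIV. Plus-strand members numbered 28 and minus-strand members 17. The strand share over all genes was not counted, so no excess of a strand can be read from these counts. Right arms held 31 (68.9%), where 58.4% of all nuclear protein-coding genes are on right arms. Together the members covered 222855 bp, or 1.85% of the nuclear genome.

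**Figure D4:**
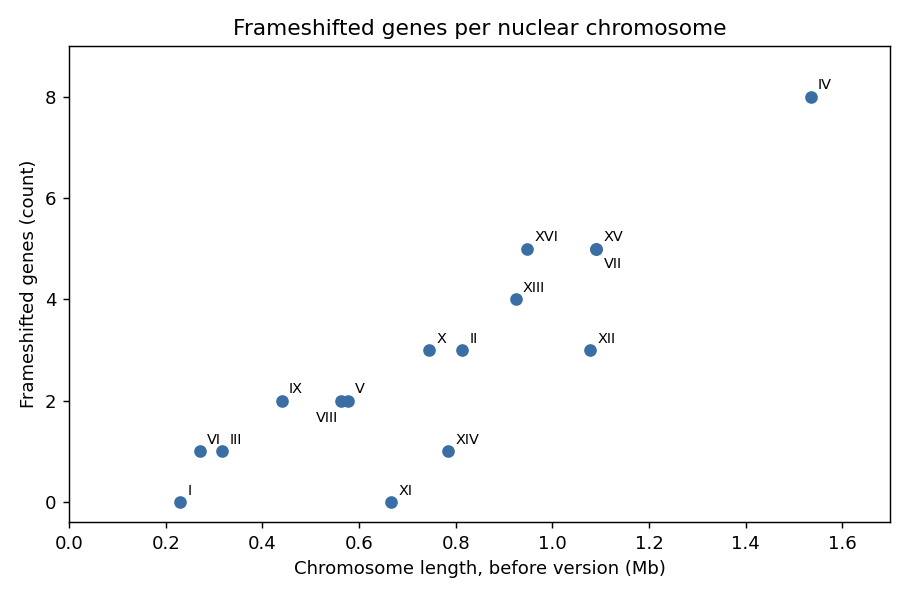
Number of frameshifted genes (y axis, count) against the length of the nuclear chromosome in the before version (x axis, Mb), 1 point per chromosome, with the points of VII and XV on top of each other. Chromosome IV stands at 8, and chromosomes I and XI at 0.

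The median distance of the members from the nearer chromosome end was 262139 bp, against 203555 bp for the other nuclear protein-coding genes, and this difference was not tested. The nearest to an end were YHR214C-B, 13297 bp from the right end of chromosome VIII, and YBL100W-B, 29934 bp from the left end of chromosome II. The nearest to the interval between the left and right arms, where the centromere of a yeast chromosome lies, was YFL002W-A on chromosome VI at 4942 bp, followed by YBL005W-B on chromosome II at 10869 bp.

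Between the before and after versions, all 45 members kept the lengths of both records and the distance to their tRNA gene. The 8 members on chromosome IV moved and the other 37 did not. All 8 have right-arm names and moved by -3423 bp, the change in length of that chromosome. Of its other protein-coding genes, 69% had other coordinates after, by any distance. At the lowest coordinate, YDR034C-D went from 517148 to 513725, YDR098C-B from 648963 to 645540, YDR210W-B from 875217 to 871794 and YDR210C-D from 881764 to 878341. YDR261W-B went from 984567 to 981144, YDR261C-D from 990639 to 987216, YDR316W-B from 1099169 to 1095746 and YDR365W-B from 1210102 to 1206679.

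The authors' grids divide every nuclear chromosome into 500 bins, so that a member of about 5 kb spanned a different number of bins by chromosome. YDR210C-D and YDR365W-B on chromosome IV, with bins of 3071 bp, overlapped 2 bins, and YFL002W-A on chromosome VI, with bins of 541 bp, overlapped 11. The median was 4 bins, and 178 of 8000 nuclear bins (2.23%) held bases of a member. By the bin that held its midpoint, 3 of the 8 chromosome IV members had another number after, against 31% of the other protein-coding genes of that chromosome. YDR034C-D went from bin 170 to 169, YDR098C-B from 213 to 212 and YDR261C-D from 324 to 323.

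Genes that act with OAZ1 and EST3 were looked up for the same mark, which 0.675% of all nuclear protein-coding genes carry. None of the 7 protein-coding genes of these lists had it. At so low a share, 7 genes are too few for this count to set them apart. The 4 genes of polyamine synthesis, SPE1, SPE2, SPE3 and SPE4, each had 1 exon record, SPE1 being the gene of the ornithine decarboxylase that antizyme controls. So did EST1 and EST2, which encode telomerase subunits, CDC13, which encodes the telomere protein that recruits telomerase, and TLC1, the gene of its RNA, which is not protein coding and lay outside the rule. Among these the distance to the nearest member ran from 8718 bp, for EST1 and YLR227W-B, to 452129 bp, for CDC13 and YDR034C-D. SPE1 lies on chromosome XI, which held no member. Distances of list genes, here and below, were not set against those of all genes. Of 7 genes for RNA polymerase III and its factors, a machinery known to recruit Ty1 or Ty3 integration, RET1 was nearest to a member, 20275 bp from YOR192C-B, and RPC53 furthest, 332536 bp from YDR034C-D. TFC3 lies on chromosome I, which held no member, and with 2 exon records was the only one of these 15 genes with more than 1.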

How the data were processed

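The authors deposited chromosome lengths, bin positions and gene annotations, all in bp and without a score. The source field of the annotation names Ensembl. Per the submitters' processing notes, Bowtie2 2.2.9 was used for the libraries. No label or deposited file names the genome build of these coordinates. Library depth is unknown. Coordinates are 1-based and of the before version unless stated.

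A gene's extent covered all its records. Coding length was the sum of coding records. Distance was the number of bp between nearest edges, and the side of a tRNA gene was read from midpoints and the tRNA gene's strand. The functions were tested on simulated data. Members, lists and the 1 kb window were chosen with earlier results of these data known. All members with a name, on chromosome IV, or at an extreme of length, shift or distance are named. The gene table gives no product descriptions, so the part of the naming rule that needed them was not applied. Members outside the rule (YBR012W-B, for example) were named after their values were seen. Alternatives concerned the gap, the version, the record type, the window and the members without a name. Gene sequences were not used here. Python 3.11.15, pandas 2.3.3, numpy 2.4.6 and matplotlib 3.10.9 were used.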

Additional observations from a re-analysis of the deposited data

How the results depend on the processing

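The count of 45 members was the same with gaps under 5 bp, of exactly 1 bp, between coding records and in the after annotation, and was 46 with gaps under 50 bp. The median coding length of 5265 bp became 5269 bp as gene extent, which adds the stop codon and the skipped base. Members with a tRNA gene within 1 kb numbered 30, against 19 within 500 bp (4.37% of other genes), 33 within 2 kb (10.6%) and 21 from the first coding base. The median distance of all members to a tRNA gene was 537 bp, and it was 534.5 bp without the named genes and 3222.5 bp between midpoints, which includes part of each gene's length. Counts of companions (41) and moved members (8) were equal under their alternatives, and 4 members in place of 3 changed bin number by the first coding base. Leaving out the companions from the other genes, an alternative chosen after seeing the data, took their count within 1 kb from 435 to 415. No paired analysis was possible because none of the files gives values per library. The genome build of the annotation is not named, and its chromosome IV differs between the before and after versions. Which of these genes the BY4741 strains carry was not measured.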
